A study of Mus musculus with 24 samples.

Results

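The genes described here encode the classical proteins that choose splice sites and build the early spliceosome: SR proteins, heterogeneous nuclear ribonucleoproteins (hnRNPs), the proteins of the small nuclear ribonucleoproteins (snRNPs), and the SF3A and SF3B subunits of the U2 snRNP. They were chosen by gene symbol (Srsf with a number, Hnrnp, Snrp, Sf3a and Sf3b), leaving out pseudogene symbols and genes with a mean below 20 size-factor-normalized counts over the 24 libraries. This gave 52 of 35742 genes: 11 SR genes, 20 hnRNP genes, 8 genes of the Sm core, 4 of U1 and U2 snRNP proteins, and 9 of SF3A and SF3B. No symbol was lost to the level limit. The lowest mean was that of Srsf12, at 32.6, and the next was Srsf4, at 413. Symbols and the level limit picked the genes, and no measured difference between groups did. The choice was made with earlier results of these data known.

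The RNA libraries come from mouse embryonic stem (mES) cells of the line V6.5 that carry a BRD2 degron, in which an auxin is used to remove the chromatin reader BRD2. There were 8 groups of 3 libraries: mES cells and embryoid bodies (EB) on day 2, 3 or 4 (EBd2, EBd3, EBd4), each with doxycycline alone (Dox) or with indole-3-acetic acid as well (IAA). Doxycycline was given to all 8 groups, the controls included, at 1 µg/ml for 18 h, and IAA at 500 µM for 24 h. The mES cells grew in 2i medium with LIF and serum, and EB formed without LIF. The labels describe 1 degron line and do not say when IAA was added during EB culture. They also do not say whether the 3 libraries of a group came from separate cultures, so p-values measure only the spread between these libraries.

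Splicing removes introns from a new transcript. SR proteins bind exon sequences and usually favour the use of nearby splice sites, while hnRNPs coat the transcript and often work against them. The Sm proteins form a ring on the U1, U2, U4 and U5 small nuclear RNAs, and SF3A and SF3B hold the U2 snRNP on the branch point. Many SR and hnRNP genes limit their own product by including an exon that sends the transcript to nonsense-mediated decay. The values below sum all transcripts of a gene, so such forms are not separated from the coding ones.

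Recovered reads per library ranged from 7819522 to 15732767, and in EBd4 each IAA library had more reads (9007143 to 10598075) than each Dox library (7941180 to 8120480). Over the 24 pairs of libraries within groups, the chi-square per degree of freedom ranged from 1.12 to 5.35, where counting noise alone gives about 1. Library EBd2 Dox 3 (4.49 and 3.77 from its partners) and library EBd4 IAA 1 (5.35 and 3.68) stood farthest apart. RNA of Brd2, the targeted gene, was higher with IAA in each stage, with log2 changes of 0.87 ± 0.023 (SE) in mES, 0.65 ± 0.044 in EBd2, 0.38 ± 0.040 in EBd3 and 0.48 ± 0.058 in EBd4. RNA does not show the protein, whose loss was not measured here. All 6 naive pluripotency markers (Zfp42, Esrrb, Klf4, Tfcp2l1, Tbx3, Nanog) were detected in each group; their summed counts were 37908 to 39608 in mES Dox and 1827 to 1976 in EBd2 Dox, and 4 general pluripotency markers were detected throughout. Of 7 fibroblast markers, 4 were at 0 in mES Dox and the sum was at most 50.2, and of 4 trophoblast markers, 1 was at 0 and the sum was at most 3.47. With IAA the naive sum was higher in mES (46055 to 47283) and lower in EBd2 (1289 to 1367). It was also lower with IAA in EBd3 (2109 to 2587, against 2617 to 3080 with Dox) and in EBd4 (4614 to 4953, against 5310 to 5541). Nanog carried both of these falls, with means of 1843 to 1318 in EBd3 and 4788 to 3817 in EBd4. Zfp42 (259 to 435), Esrrb (136 to 243), Klf4, Tfcp2l1 and Tbx3 all had higher means with IAA in EBd4. For EBd3, Esrrb, Klf4, Tfcp2l1 and Tbx3 were higher with IAA and Zfp42 slightly lower (588 to 578). The sum of 4 primed epiblast markers was 1223 to 1352 with Dox and 556 to 628 with IAA in mES, and 23569 to 25260 and 31373 to 33209 in EBd2. The lower mES sum was that of Dnmt3b alone (mean 1047 to 320). There Otx2 (159 to 184) and Pou3f1 (70.9 to 91.2) were higher with IAA, and Fgf5 was at 0 in both groups. In EBd2 Fgf5, Otx2, Dnmt3b and Pou3f1 each had a higher mean with IAA. The summed neuroectoderm markers (Pax6, Sox1, Nes, Tubb3) in EBd2 were 1160 to 1202 with Dox and 2282 to 2321 with IAA. In mES Dox that sum was already 2283 to 2445. The primitive streak markers in EBd4 were 471 to 1084 with Dox and 81.5 to 748 with IAA. The part of these shifts in the results below was not tested. In bulk RNA, fewer cells of a type and less RNA per cell cannot be told apart.

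The members together held 1.91% to 1.94% of the reads in mES Dox and 1.97% to 2.00% in mES IAA, so the mES groups did not overlap. In EBd2 the shares were 2.09% to 2.18% with Dox and 2.19% to 2.23% with IAA. In EBd3 they overlapped (2.19% to 2.20% and 2.15% to 2.20%). In EBd4 the order was the other way, with 2.15% to 2.20% in Dox and 2.04% to 2.13% in IAA. These are shares of each library, so they show the members relative to the rest of the RNA.

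The question of the main comparison is what IAA did within each stage. In mES cells most SR and hnRNP genes rose, and 5 of 8 Sm genes fell by limma, 2 of them by calls that DESeq2 did not make. In EBd2 the rises were again SR and hnRNP genes, and falls came from all roles. Those rises were 29.0% of SR and hnRNP genes, near the 27.5% of genes with a mean of at least 400 that rose. In EBd3 and EBd4 most calls were falls. The test was limma with Benjamini-Hochberg adjustment over all genes at 0.05, on log2 of size-factor-normalized counts plus 1.

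In mES, 22 members rose and 14 fell, beside 17.3% of all 20865 tested genes that rose and 20.1% that fell. With DESeq2 on recovered reads 8 fell. Most members are highly expressed, and 51 of 52 have a mean of at least 400. Of the 5728 tested genes at that level, 37.9% rose and 24.2% fell, close to the members' 42.3% and 26.9%. The members' median log2 change was 0.05, and that of genes with a mean of at least 400 was 0.04. By role, 19 of 31 SR and hnRNP genes rose (61.3%), while 0 of 12 genes of the Sm core and of U1 and U2 rose and 6 fell (50%). Joining roles in this way was chosen after the values were seen, and the difference between roles was not tested. With TMM scaling the counts were 23 and 10.

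In EBd2, 9 members rose and 11 fell, beside 13.4% of all 22076 tested genes that rose and 16.7% that fell. Of the 5733 genes with a mean of at least 400, 27.5% rose and 18.7% fell, so the members' 17.3% that rose lay below that level and their 21.2% that fell lay slightly above it. This split depended on the scaling: with TMM 15 members rose and 6 fell, and with edgeR on recovered reads 16 rose and 6 fell. Leaving out library EBd2 IAA 2 gave 8 rising and 5 falling members. Without EBd2 Dox 3 there were 9 and 14. The members that rose were 3 SR and 6 hnRNP genes and no gene of the other 3 roles. That was 29.0% of the 31 SR and hnRNP genes, near the 27.5% of genes with a mean of at least 400.

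In EBd3, 1 member rose (Srsf7) and 4 fell (Srsf9, Hnrnpa3, Hnrnpd and Snrpb), beside 4.22% and 6.32% of all 21304 tested genes and 10.6% and 8.51% of those with a mean of at least 400. In EBd4, 0 rose and 9 fell, beside 4.69% and 5.57% of all 21170 tested genes and 11.1% and 9.05% of those with a mean of at least 400, and edgeR and DESeq2 on recovered reads also called 0 rises. The EBd4 count rested on few libraries. It was 0 without EBd4 Dox 2, 4 without EBd4 IAA 1 and 12 without EBd4 IAA 3. With DESeq2 it was 3, and with 1 fit of all 24 libraries 17 fell and 2 rose. In the authors' deposited table, which gives DESeq2 values, 21 members had an adjusted p below 0.05 and rose and 9 fell in mES, 10 and 9 in EBd2, 1 and 3 in EBd3. In EBd4 the table gave 3 and 16. The authors' own calls in that table marked 1 member in mES (Srsf12, down) and 0 in each other stage. That table gives means over all 24 libraries, while the DESeq2 count of 3 above used only the 6 libraries of its stage. Those counts are therefore not like for like.

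**Figure D1:**
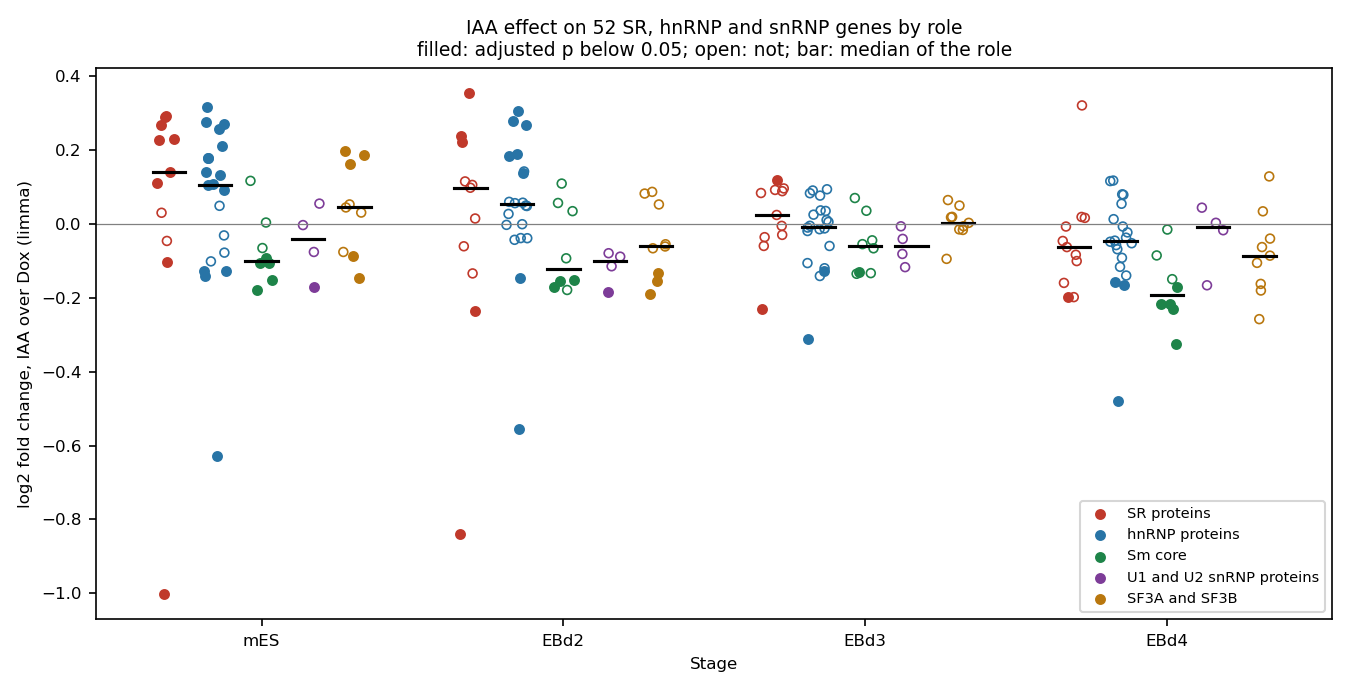
Log2 fold change of IAA over Dox (y axis) for each of the 52 genes (points) in the 4 stages (x axis), coloured by role, filled where the limma adjusted p is below 0.05, with a bar at each role's median. SR and hnRNP points lie mostly above 0 in mES and Sm core points mostly below, the lowest mES point is Srsf12 at -1.002, and in EBd4 no filled point lies above 0.

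Over the 4 stages, 21 members were called up at least once and never down, and 20 down at least once and never up. A further 2 (Srsf2 and Hnrnph1) were up in 1 stage and down in another, and 9 were not called. These patterns were not counted over all genes, so the counts do not set the members apart from genes of like level. Hnrnpd and Snrpb were the 2 members that fell in all 4 stages, and 0 rose in all 4, beside 0.948% and 0.647% of the 18244 genes tested in all stages. The plot of changes by role shows both.

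In mES, 7 of 11 SR genes rose and 2 fell (63.6% and 18.2%), and in EBd2 3 rose and 2 fell (27.3% and 18.2%). All tested genes rose and fell at 17.3% and 20.1% in mES, and at 13.4% and 16.7% in EBd2. At a mean of at least 400 the shares were 37.9% and 24.2% in mES, and 27.5% and 18.7% in EBd2. The EBd2 SR counts lay near the latter. In EBd3 Srsf7 rose and Srsf9 fell (9.09% each), and in EBd4 Srsf2 fell (9.09%) and 0 rose. Genes with a mean of at least 400 rose and fell at 10.6% and 8.51% in EBd3, and at 11.1% and 9.05% in EBd4. Srsf12 and Srsf7 stand at the ends of the range, and the 250 bases upstream of their RefSeq starts (GRCm38.p6, 5′ to 3′ on the gene's strand) are shown because they sit at those ends. Capitals mark each GC box, GGGCGG or CCGCCC on the other strand, the motif that Sp1-type factors bind. The Srsf12 stretch is chr4:33209022-33209271 on the plus strand, with 1 GC box and 68.0% G and C. It precedes a start inside the GENCODE gene, which begins at position 33208991. The Srsf7 stretch is chr17:80207306-80207555 on the minus strand, with 3 GC boxes and 61.6% G and C.
Srsf12: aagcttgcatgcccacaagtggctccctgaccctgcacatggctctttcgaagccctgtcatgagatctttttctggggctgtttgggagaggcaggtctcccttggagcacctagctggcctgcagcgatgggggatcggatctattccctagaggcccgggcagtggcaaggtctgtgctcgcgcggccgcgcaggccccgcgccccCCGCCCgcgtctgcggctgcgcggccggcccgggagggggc
Srsf7: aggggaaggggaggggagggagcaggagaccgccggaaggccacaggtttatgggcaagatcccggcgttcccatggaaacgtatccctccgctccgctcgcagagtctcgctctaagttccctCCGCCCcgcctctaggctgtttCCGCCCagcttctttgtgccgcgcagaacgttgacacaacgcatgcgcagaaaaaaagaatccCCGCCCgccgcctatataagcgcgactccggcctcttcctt

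Srsf12, described in human cells as an SR protein that works against splicing, was by far the lowest member and had the largest relative change. Its normalized counts were 22, 17 and 18 in the mES Dox libraries and 12, 9 and 7 in the mES IAA libraries. All 3 IAA libraries lay below all 3 Dox libraries. The mean went from 18.9 ± 2.44 to 9.10 ± 2.49 (SD, n = 3), a log2 change of -1.002 ± 0.29 (SE; limma adjusted p = 0.00535). In EBd2 it was 64, 70 and 65 with Dox and 35, 41 and 34 with IAA, again without overlap, at a log2 change of -0.84 ± 0.16 (limma adjusted p = 0.000314). In EBd3 (-0.03) and EBd4 (0.32) it did not pass the test, with adjusted p of 0.96 and 0.43. It was the 1 member with a change of 2-fold or more in any stage, and its low counts limit the precision.

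Srsf7 and its close relative Srsf3 couple splicing to the export of mRNA. In mES, Srsf7 had 3625, 3827 and 3768 counts with Dox and 4180, 4053 and 4138 with IAA. In EBd2 it had 3621, 3571 and 3194 with Dox and 4224, 4587 and 4454 with IAA, so the groups were separate in both stages. It rose by a log2 change of 0.14 ± 0.026 in mES (limma adjusted p = 2.1e-05), 0.35 ± 0.050 in EBd2 (1.58e-05) and 0.12 ± 0.036 in EBd3 (0.0309). That last call did not hold without any of the 3 EBd3 Dox libraries, without EBd3 IAA 2 or in the joint fit of all 24 libraries. In EBd4 its log2 change was -0.05 (0.59). Srsf3 had 5210, 5329 and 5296 counts with Dox and 6226, 6009 and 6290 with IAA in mES, where it rose by 0.23 ± 0.023 (1.8e-10). It also rose in EBd2, by 0.22 ± 0.054 (0.00357), and by 0.14 without EBd2 Dox 3 (limma adjusted p = 0.00201). In EBd4 library IAA 1 had 4226 counts, below the other IAA libraries (4844 and 5209) and the Dox libraries (5276 to 5686), and the log2 change of -0.20 did not pass the test (0.052). Without that library it was -0.12 (0.169).

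The other SR genes that rose in mES were Srsf2, Srsf5, Srsf6, Srsf10 and Srsf11, the last by 0.11, a call lost without mES Dox 3 or mES IAA 3 and in the joint fit. Srsf5 and Srsf6, which bind exonic enhancers, rose most, by log2 changes of 0.29 each. Srsf5 had 5879, 5813 and 5648 counts with Dox and 7151, 6837 and 7223 with IAA. Srsf6 had 3638, 3516 and 3642 with Dox and 4407, 4268 and 4535 with IAA, and the groups of both genes were separate. Srsf6 rose again in EBd2 (0.24 ± 0.043, limma adjusted p = 0.000232). Srsf2, which also takes part in releasing paused RNA polymerase II, had 4292, 4378 and 4416 counts with Dox and 5291, 5120 and 5353 with IAA in mES. It rose there by 0.27 ± 0.024 (7.88e-12). In EBd4 it had 3816, 3572 and 3451 with Dox and 3106, 3168 and 3170 with IAA, and fell by a log2 change of -0.20 ± 0.045 (0.0121). The EBd4 groups did not overlap, and the call was lost without EBd4 Dox 1, EBd4 Dox 2 or EBd4 IAA 2. The annotation places Mettl23 and Mfsd11 over part of Srsf2, and the strandedness of the libraries is not given in the sources used here, so reads of overlapping genes cannot be told apart.

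Srsf9 was called lower in 3 stages, with log2 changes of -0.10 in mES, -0.24 in EBd2 and -0.23 in EBd3 (limma adjusted p = 0.0373, 0.0119 and 0.0388). Its values overlapped between Dox and IAA in mES (1140 to 1268 and 1073 to 1166) and in EBd3 (701 to 882 and 670 to 725). In EBd2 they did not overlap (808 to 854 and 650 to 803). None of these calls held in every setting. The mES call was lost with TMM, edgeR, DESeq2, the joint fit or a pseudocount of 0.1, and without any of 4 of the 6 libraries, where the change was as small as -0.06 (without mES Dox 1). The EBd2 call was lost without EBd2 IAA 1 (-0.18) or EBd2 IAA 2 (-0.20). The EBd3 call was lost with DESeq2, the joint fit or a pseudocount of 0.1 and without any of 4 libraries. Srsf1, a founding SR protein with 5470 to 5503 counts in mES Dox, and Srsf4 passed the test in no stage.

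Among the hnRNPs, 12 of 20 rose in mES (60%) and 4 fell (20%), and in EBd2 6 rose (30%) and 2 fell (10%). All tested genes rose and fell at 17.3% and 20.1% in mES, and at 13.4% and 16.7% in EBd2. At a mean of at least 400 the shares were 37.9% and 24.2% in mES, and 27.5% and 18.7% in EBd2. The EBd2 rises of hnRNP genes lay near that share. In EBd3 0 rose and 2 fell (10%), and in EBd4 0 rose and 3 fell (15%). Genes with a mean of at least 400 rose and fell at 10.6% and 8.51% in EBd3, and at 11.1% and 9.05% in EBd4. The strongest contrast was between neighbouring paralogs on chromosome 5. Hnrnpd (AUF1), which binds AU-rich elements and is known for steering mRNA decay, lies at chr5:99955935-99978938 (mm10, minus strand). Hnrnpdl, its paralog, lies at chr5:100033577-100039664 on the same strand, 54638 bases away. The 250 bases before the RefSeq start of each are shown because the neighbours moved in opposite directions, with GC boxes in capitals as above. The Hnrnpd stretch is chr5:99978939-99979188, with 3 GC boxes and 74.4% G and C. The Hnrnpdl stretch is chr5:100039223-100039472, with 3 GC boxes and 72.0% G and C, and it precedes a start that lies inside the GENCODE gene.
Hnrnpd: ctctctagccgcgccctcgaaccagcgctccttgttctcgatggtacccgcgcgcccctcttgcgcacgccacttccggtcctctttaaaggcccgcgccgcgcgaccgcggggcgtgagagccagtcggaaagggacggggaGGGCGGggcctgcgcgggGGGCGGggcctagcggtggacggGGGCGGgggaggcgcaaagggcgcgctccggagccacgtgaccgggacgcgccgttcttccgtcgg
Hnrnpdl: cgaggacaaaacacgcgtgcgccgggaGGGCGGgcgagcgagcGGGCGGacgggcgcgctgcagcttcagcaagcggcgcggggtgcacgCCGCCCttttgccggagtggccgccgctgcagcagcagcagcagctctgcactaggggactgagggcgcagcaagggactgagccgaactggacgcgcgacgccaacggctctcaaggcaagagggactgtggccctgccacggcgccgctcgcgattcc

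Hnrnpd fell in all 4 stages. In mES it had 2514, 2566 and 2512 counts with Dox and 1643, 1563 and 1710 with IAA. In EBd2 it had 3413, 3230 and 3112 with Dox and 2193, 2141 and 2305 with IAA. The IAA libraries of these stages lay far below the Dox libraries. In EBd3 the counts were 3660, 3931 and 3824 with Dox and 3246, 2984 and 2962 with IAA. In EBd4 they were 2840, 2583 and 2415 with Dox and 1483, 1977 and 2225 with IAA. No stage had overlapping groups, and the lowest EBd4 value was that of library IAA 1. The log2 changes were -0.63 ± 0.032 in mES (limma adjusted p = 1.11e-18), -0.55 ± 0.048 in EBd2 (2.13e-08), -0.31 ± 0.042 in EBd3 (7.52e-06) and -0.48 ± 0.11 in EBd4 (0.00971). Without EBd4 IAA 1 the EBd4 change was -0.31 and still passed the test. The EBd4 call was lost with DESeq2 (-0.45), without EBd4 Dox 1 (-0.42) and without EBd4 Dox 2 (-0.49).

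Hnrnpdl moved the other way in the first stages. In mES it had 3588, 3350 and 3358 counts with Dox and 4214, 4171 and 4444 with IAA. In EBd2 it had 5744, 5696 and 4732 with Dox and 6541, 6609 and 6251 with IAA, and in both stages all IAA libraries were above all Dox libraries. It rose by 0.32 ± 0.028 in mES (limma adjusted p = 6.28e-12) and by 0.27 ± 0.057 in EBd2 (0.00113). In EBd3 the groups overlapped (4056 to 4323 with Dox and 4036 to 4331 with IAA). In EBd4 they also overlapped (2953 to 3238 and 3108 to 3362), and neither stage passed the test. Without EBd2 Dox 3 the EBd2 change was 0.18 (limma adjusted p = 0.000178).

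**Figure D2:**
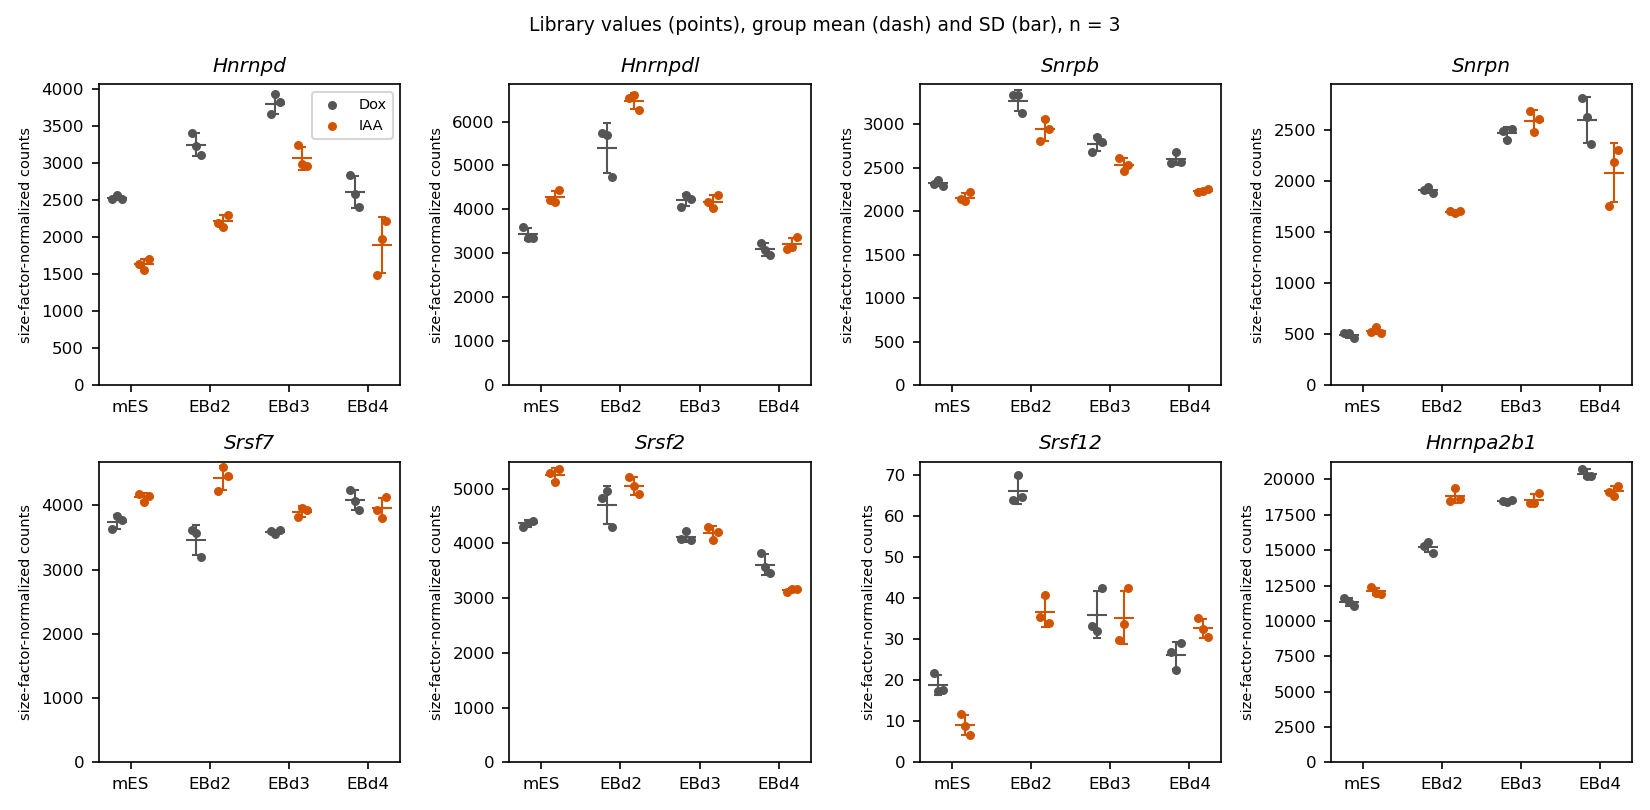
Size-factor-normalized counts (y axis, from 0) of 8 genes in each library (points; Dox grey, IAA orange) by stage (x axis), with the mean (dash) and SD (bar) of 3 libraries. IAA points lie below Dox points for Hnrnpd and Snrpb in all 4 stages, above them for Hnrnpdl and Srsf7 in mES and EBd2, and Snrpn has 459 to 512 counts in mES Dox.

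Of the other hnRNPs, Hnrnpl, Hnrnpul2, Hnrnpab and Hnrnph1 rose most in mES. Hnrnpl, which binds CA-rich RNA, had 7309, 7426 and 7577 counts with Dox and 9177, 8789 and 8935 with IAA. Hnrnpul2 had 4453, 4510 and 4529 with Dox and 5492, 5480 and 5355 with IAA. The groups were separate for both, at log2 changes of 0.27 ± 0.021 and 0.28 ± 0.023 (limma adjusted p = 2.84e-13 and 1.48e-12). Hnrnpk, a poly-C binding protein, rose by 0.13 ± 0.018 (1.67e-07), from 10290 to 10386 counts with Dox to 11340 to 11375 with IAA. Neither Hnrnpk nor Hnrnpl passed the test in EBd2, EBd3 or EBd4. Smaller rises were those of Hnrnpa1, a binder of exonic silencers, by 0.18 ± 0.019, Hnrnpu, a nuclear scaffold protein, by 0.18 ± 0.018, and Hnrnpa2b1 by 0.09 ± 0.020.

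In EBd2 the largest rise among the hnRNP genes was that of Hnrnpa2b1, an RNA-binding protein that also sorts mRNA and miRNA. It had 15304, 15577 and 14835 counts with Dox and 18509, 19430 and 18615 with IAA, a log2 change of 0.31 ± 0.038 (limma adjusted p = 3.55e-06). Hnrnpll, a paralog of Hnrnpl known as a splicing regulator in T cells, had 1220, 1304 and 1324 counts with Dox and 1489, 1607 and 1576 with IAA there. It rose by 0.28 ± 0.052 (0.000303), while in mES its value was -0.08 (0.11). Hnrnpll and Srsf7 are also neighbours, on chromosome 17 with 137745 bases between them on the same strand. In EBd3 Hnrnpa3, a relative of Hnrnpa1, fell from 13322 to 13596 counts with Dox to 12205 to 12414 with IAA, a log2 change of -0.13 ± 0.027 (0.00246). It also fell in mES, by -0.13 ± 0.022 (6.33e-06). Of the 3 hnRNP genes that fell in EBd4, Hnrnph1 had overlapping groups (9659 to 10652 and 8418 to 9741), and Hnrnph2 did not (1492 to 1518 and 1336 to 1366), at log2 changes of -0.17 and -0.16 and limma adjusted p of 0.0491 and 0.0493. Both calls were lost with TMM, edgeR or DESeq2 and without most single libraries, and without EBd4 IAA 1 the changes were -0.11 and -0.15 (0.179 and 0.0869).

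The Sm core went down where it moved. Of 8 Sm genes, 5 fell in mES, 3 in EBd2, 1 in EBd3 and 5 in EBd4, and none rose in any stage by limma. Beside these stand falls of 20.1%, 16.7%, 6.32% and 5.57% of all tested genes. Among genes with a mean of at least 400 the falls were 24.2%, 18.7%, 8.51% and 9.05%, and the EBd3 count (12.5% of Sm genes) lay near that share. In EBd4 all 8 log2 changes lay below 0, with a median of -0.19, beside -0.01 for all tested genes. Summed over the 8 genes, the counts were 10856 to 11385 in mES Dox and 10369 to 10642 in mES IAA, and 12437 to 12904 in EBd4 Dox and 10505 to 11810 in EBd4 IAA. The groups of both stages were separate. In EBd2 and EBd3 the sums were 12128 to 12976 against 11519 to 12430, and 12849 to 13269 against 12375 to 12864, with overlap.

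Snrpb encodes SmB, a subunit of the ring, and was the Sm gene that fell in all 4 stages. It had 2311, 2360 and 2292 counts with Dox and 2138, 2121 and 2217 with IAA in mES. In EBd2 it had 3343, 3343 and 3132 with Dox and 2806, 3066 and 2952 with IAA. The IAA libraries lay below the Dox libraries in both stages. In EBd3 it had 2686, 2849 and 2799 with Dox and 2610, 2468 and 2533 with IAA. In EBd4 it had 2561, 2683 and 2562 with Dox and 2218, 2239 and 2260 with IAA, again without overlap. The log2 changes were -0.10 ± 0.029 in mES (limma adjusted p = 0.00405), -0.15 ± 0.047 in EBd2 (0.0161), -0.13 ± 0.041 in EBd3 (0.0381) and -0.22 ± 0.044 in EBd4 (0.0057). The EBd2 and EBd3 calls were lost with TMM scaling (-0.12 and -0.13), with DESeq2 (-0.13 and -0.12) and without any of several libraries, and the EBd4 call was lost without EBd4 Dox 2 (-0.19). The fall in all 4 stages thus depends on the settings named.

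Snrpe and Snrpd1, other subunits of the ring, fell most in mES, by log2 changes of -0.18 ± 0.036 and -0.15 ± 0.035 (limma adjusted p = 9.52e-05 and 0.000531). Snrpe had 1510, 1554 and 1437 counts with Dox and 1364, 1334 and 1276 with IAA. Snrpd1 had 1365, 1329 and 1307 with Dox and 1209, 1198 and 1195 with IAA, and neither gene had overlapping groups. Snrpd3 and Snrpg also fell in mES by limma, with log2 changes of -0.09 and -0.10. Both calls were lost with TMM scaling (limma adjusted p = 0.059 and 0.0541), with DESeq2 (0.156 and 0.161), in the joint fit and without any of several libraries, mES Dox 1 among them, where Snrpg was at -0.07. Without mES IAA 2, Snrpd3 was at -0.06. In the authors' deposited table the adjusted p was 0.196 for Snrpd3 and 0.183 for Snrpg, and 0.00355, 0.0191 and 0.0367 for Snrpe, Snrpd1 and Snrpb.

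In EBd4 the Sm genes that fell were Snrpb, Snrpd2, Snrpd3, Snrpg and Snrpn. Snrpg had 935, 981 and 959 counts with Dox and 780, 811 and 860 with IAA, a log2 change of -0.23 ± 0.058 (limma adjusted p = 0.0208). Snrpd3 had 1692, 1567 and 1541 with Dox and 1386, 1263 and 1486 with IAA, a log2 change of -0.22 ± 0.062 (0.0386). Both calls were lost with DESeq2, without EBd4 IAA 1 (-0.20 and -0.22) and without most of the other EBd4 libraries. The call of Snrpd2 (-0.17) was lost with TMM, edgeR or DESeq2 and without any of the 6 libraries, with -0.15 without EBd4 IAA 1. Snrpn, the imprinted paralog of Snrpb that makes the SmN protein of neurons, had 2818, 2628 and 2364 counts with Dox and 1760, 2188 and 2307 with IAA. Its groups did not overlap, and the lowest value was again that of EBd4 IAA 1. The log2 change was -0.33 ± 0.084 (0.0228), and -0.21 without that library, where it did not pass the test. The call was also lost without EBd4 Dox 1 (-0.27), EBd4 Dox 2 (-0.32) or EBd4 IAA 2 (-0.37).

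Snrpn also fell in EBd2, from 1911, 1948 and 1889 counts with Dox to 1707, 1691 and 1706 with IAA (-0.17 ± 0.045, limma adjusted p = 0.0065, and 0.057 in the joint fit). In mES its log2 change was 0.12 (0.089) and in EBd3 0.07 (0.34). Snrpn shares its locus with Snurf, whose reads cannot be told apart from it here.

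Of the U1 and U2 snRNP proteins, 1 of 4 fell in mES, 1 in EBd2 and none in EBd3 or EBd4 by limma. The mES and EBd2 counts, 25% each, stand near the 20.1% and 16.7% of all tested genes that fell. Among genes with a mean of at least 400, 24.2% fell in mES and 18.7% in EBd2. Snrpb2, the U2B″ protein, had 972, 945 and 952 counts with Dox and 878, 843 and 827 with IAA in mES, a log2 change of -0.17 ± 0.040 (limma adjusted p = 0.000604). Snrpc, the C protein of U1, which helps to fix the 5′ splice site, had 1547, 1542 and 1517 with Dox and 1392, 1376 and 1291 with IAA in EBd2, a log2 change of -0.18 ± 0.049 (0.00723). The groups were separate in both. The EBd2 call for Snrpc was lost without EBd2 IAA 3. Snrpa and Snrpa1, the A proteins of U1 and of U2, passed the test in no stage.

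SF3A and SF3B gave a mixed picture. In mES, Sf3b1, Sf3b2 and Sf3a2 rose and Sf3a3 and Sf3b6 fell. These were 33.3% and 22.2% of the 9 genes, beside 17.3% and 20.1% of all tested genes. Of genes with a mean of at least 400, 37.9% and 24.2% rose and fell, so both SF3 counts lay near that level. Sf3b1, the subunit that clasps the branch point helix, had 4733, 4680 and 4691 counts with Dox and 5324, 5336 and 5382 with IAA. It rose by 0.19 ± 0.023 (limma adjusted p = 1.21e-08). Sf3b6, the small subunit that contacts the branch point adenosine, had 854, 881 and 887 with Dox and 781, 777 and 813 with IAA, and fell by a log2 change of -0.15 ± 0.041 (0.00415), a call that DESeq2 did not make (-0.13, 0.0585). In EBd2 Sf3a1, Sf3b4 and Sf3a3 fell, by -0.19, -0.15 and -0.13 (0.00776, 0.0319 and 0.0458). That was 33.3% of the 9, beside 16.7% of all tested genes and 18.7% of those with a mean of at least 400. The calls of Sf3b4 and Sf3a3 were lost with TMM, edgeR or DESeq2 and without any of several libraries, with Sf3b4 at -0.10 without EBd2 IAA 2 and Sf3a3 at -0.11 without EBd2 Dox 3. The mES call of Sf3a3 (-0.09) was also lost with TMM and DESeq2. Sf3a1 had 2273, 2245 and 2264 counts with Dox and 2100, 1827 and 2031 with IAA there, and its call was lost without EBd2 IAA 2 (-0.13). In EBd3 and EBd4 0 of 9 passed the limma test. The lowest log2 value in EBd4 was -0.26 and the highest 0.13.

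The Dox groups alone show how these genes stood as the cells left the 2i state. These 3 comparisons share the mES Dox libraries, so their values are given side by side and not counted as separate evidence. In EBd2 25 members were higher than in mES and 13 lower, beside 35% and 29.1% of all 22141 tested genes. In EBd3 21 were higher and 13 lower, beside 31.5% and 28.6%. In EBd4 20 were higher and 18 lower, beside 30.6% and 30.2%. Of genes with a mean of at least 400, 43% were higher and 40.6% lower in EBd2, beside 48.1% and 25% of members. The same shares of those genes were 39.2% and 40.3% in EBd3, and 38.2% and 42% in EBd4. By role, EBd2 had 6 higher and 2 lower among 11 SR genes, 10 and 7 among 20 hnRNP genes, 3 and 2 among 8 Sm genes, 1 and 2 among 4 U1 and U2 genes, and 5 and 0 among 9 SF3A and SF3B genes. Stage differs from mES in medium and cell state at once, which cannot be told apart.

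Snrpn had the largest rise. Its counts were 508, 512 and 459 in mES Dox and 1911, 1948 and 1889 in EBd2. On day 3 they were 2495, 2403 and 2514, and on day 4 they were 2818, 2628 and 2364. All EB libraries lay far above all mES libraries. The log2 changes from mES were 1.96 ± 0.054, 2.32 ± 0.054 and 2.40 ± 0.054 (limma adjusted p = 7.17e-20, 2.95e-21 and 1.3e-21), or 3.88-fold, 5.01-fold and 5.26-fold. Its paralog Snrpb was also higher, by 0.49, 0.26 and 0.16. Per exonic kb, Snrpn made up 16.3% ± 0.681 of the sum of both genes in mES Dox, 34.9% ± 0.618 in EBd2, 44.9% ± 1.21 in EBd3 and 47.7% ± 2.23 in EBd4 (SD, n = 3). In the IAA libraries the shares were 18.5% ± 1.29, 34.6% ± 1.11, 48.3% ± 0.317 and 45.9% ± 3.33, and the Dox and IAA libraries overlapped in EBd2 and EBd4 but not in mES and EBd3. Exonic length is that of all transcripts annotated to each gene, and Snurf is annotated as a separate gene that overlaps Snrpn.

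**Figure D3:**
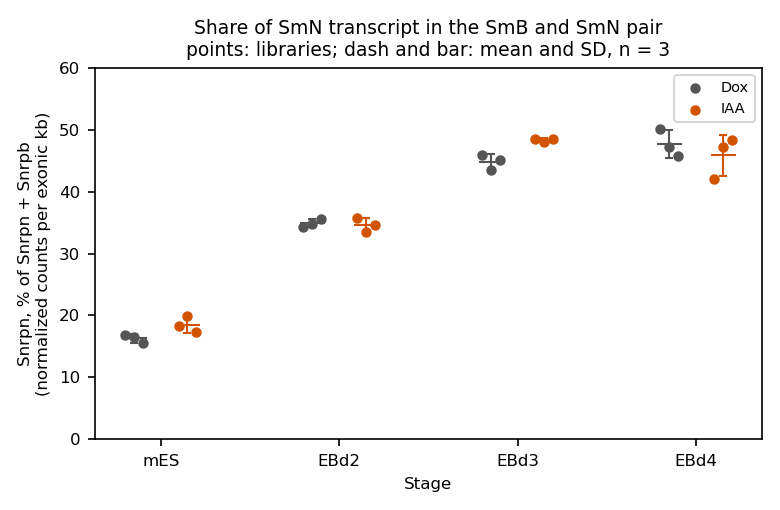
Share of Snrpn in the sum of Snrpn and Snrpb, each per exonic kb (y axis, percent), in each library (points; Dox grey, IAA orange) by stage (x axis), with mean and SD of 3 libraries. The mES Dox libraries average 16.3% and the EBd4 Dox libraries 47.7%, with each EBd2 library above each mES library.

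Hnrnph1, which binds G-rich runs, was higher in all 3 EB stages, at 5081 to 5355 counts in mES Dox, 9801 to 10484 in EBd2, 9706 to 10055 in EBd3 and 9659 to 10652 in EBd4. No EB library came near the mES values, and the log2 changes were 0.98, 0.93 and 0.97. Sf3b3, a scaffold subunit of SF3B, was higher by 0.77, 0.74 and 0.77. Hnrnpa2b1 was higher at each stage, by 0.43, 0.71 and 0.85, from 11054 to 11600 counts in mES to 20235 to 20766 in EBd4. Hnrnph3, a smaller relative of Hnrnph1, was 0.88 higher in EBd4, at 1216 to 1321 counts against 676 to 694 in mES. Srsf12 had a peak in EBd2: its counts of 64 to 70 there stood against 17 to 22 in mES, 32 to 42 in EBd3 and 22 to 29 in EBd4. Its log2 changes were 1.76 ± 0.21 in EBd2 (limma adjusted p = 5.98e-08) and 0.88 in EBd3 (0.000673).

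The members that were lower in EB included Hnrnpul2, Hnrnpa0, Snrpd2, Srsf9, Snrpa1 and Sf3b5. Hnrnpul2 had 4453, 4510 and 4529 counts in mES Dox and 2961, 2995 and 2940 in EBd2, and its log2 changes were -0.60, -0.78 and -0.72 over the 3 stages. Hnrnpa0, an hnRNP that binds AU-rich mRNA, had log2 changes of -0.49, -0.70 and -0.79. Snrpd2, a subunit of the ring, was at -0.58, -0.56 and -0.54, and Srsf9 at -0.53, -0.56 and -0.69. Sf3b5 had a log2 value of 0.01 in EBd2, which did not pass the test, and then had 658, 640 and 688 counts in EBd3 and 498, 599 and 608 in EBd4, against 1162, 1121 and 1104 in mES. Its log2 changes were -0.77 ± 0.063 and -0.99 ± 0.063 (limma adjusted p = 1.13e-10 and 7.8e-13).

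**Figure D4:**
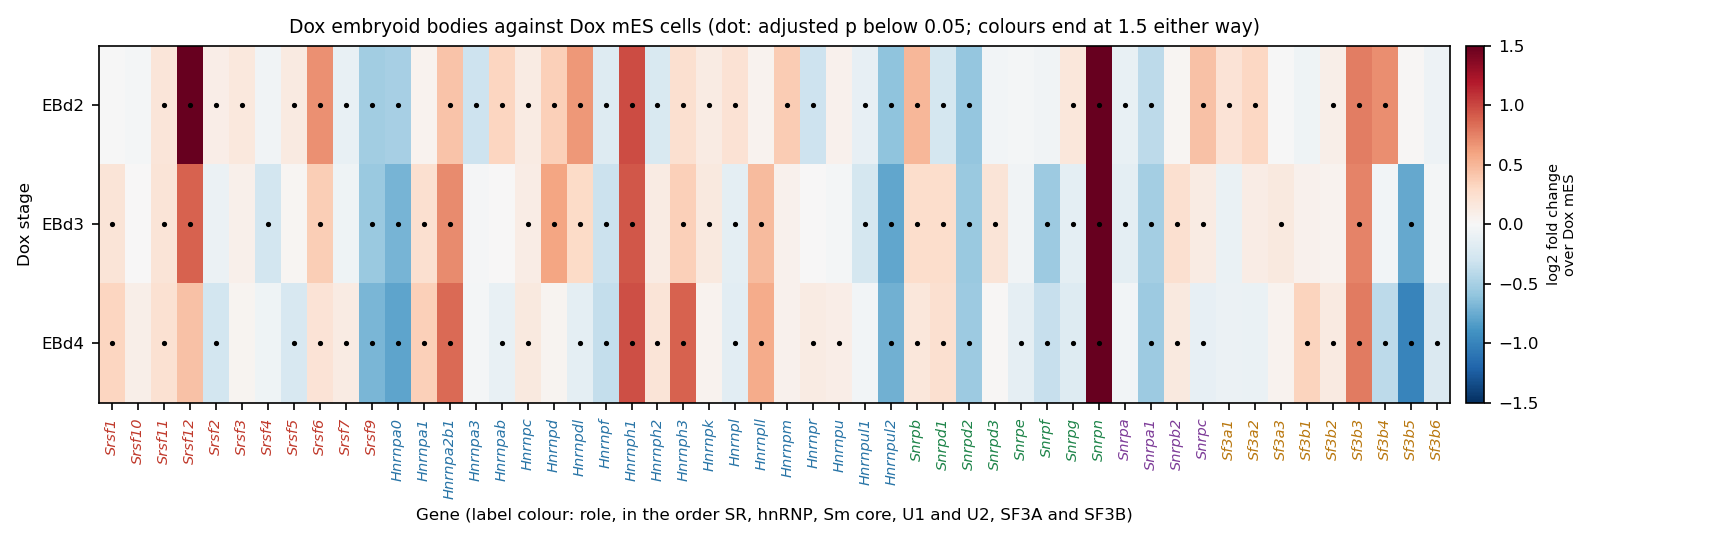
Log2 fold change of each Dox EB stage (rows) over Dox mES for the 52 genes (columns, label colour by role), as colour from blue (lower) to red (higher) with the scale ending at 1.5 either way, and a dot where the limma adjusted p is below 0.05. Snrpn passes the end of the scale in all 3 rows, with a log2 change of 2.40 in EBd4, and Sf3b5 darkens to -0.99 in EBd4.

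Whether the IAA effect differed between stages was tested directly, as the effect in an EB stage minus that in mES, in all 24 libraries. These 3 contrasts share the mES libraries. In EBd2 the effect was higher than in mES for 5 members and lower for 8, beside 9.73% and 6.61% of 22019 tested genes, and beside 15.7% and 15% of genes with a mean of at least 400. The counts were 6 and 4 with TMM scaling. In EBd3 it was higher for 1 and lower for 9, beside 7.15% and 4.52%, and beside 9.09% and 10.3% of the genes at that level. In EBd4 it was higher for 2 and lower for 19, beside 9.68% and 7.08%, and beside 13.2% and 18.1% of genes with a mean of at least 400. Of the 19, 6 were SR genes, 10 hnRNP genes, 1 an Sm gene (Snrpn) and 2 SF3B genes. Leaving out 1 library at a time gave 15 to 22 lower members, and 16 without EBd4 IAA 1.

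Srsf2 had the most negative difference in EBd4. Its IAA effect was 0.27 in mES and -0.20 in EBd4, a difference of -0.47 ± 0.059 (limma adjusted p = 6.32e-07). Srsf3 followed the same course, from 0.23 to -0.20 (-0.42 ± 0.079, 0.000185), and Hnrnph1 went from 0.21 to -0.17 (-0.38 ± 0.062, 3.75e-05). Srsf12 went the other way, from -1.002 in mES to 0.32 in EBd4, a difference of 1.32 ± 0.30 (0.00203). Snrpn went from 0.12 to -0.33 (-0.44 ± 0.095, 0.00103). The difference for Hnrnpd did not pass the test in EBd2 (0.07), EBd3 (0.31) or EBd4 (0.15), at adjusted p of 0.746, 0.0606 and 0.419. In EBd2, Hnrnpll and Hnrnpa2b1 had larger effects than in mES (differences of 0.36 ± 0.061 and 0.21 ± 0.041), and Srsf5 and Hnrnpl smaller ones (-0.28 ± 0.071 and -0.22 ± 0.058). In EBd3, Srsf5 (-0.35 ± 0.071) and Hnrnpdl (-0.33 ± 0.073) led.

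**Figure D5:**
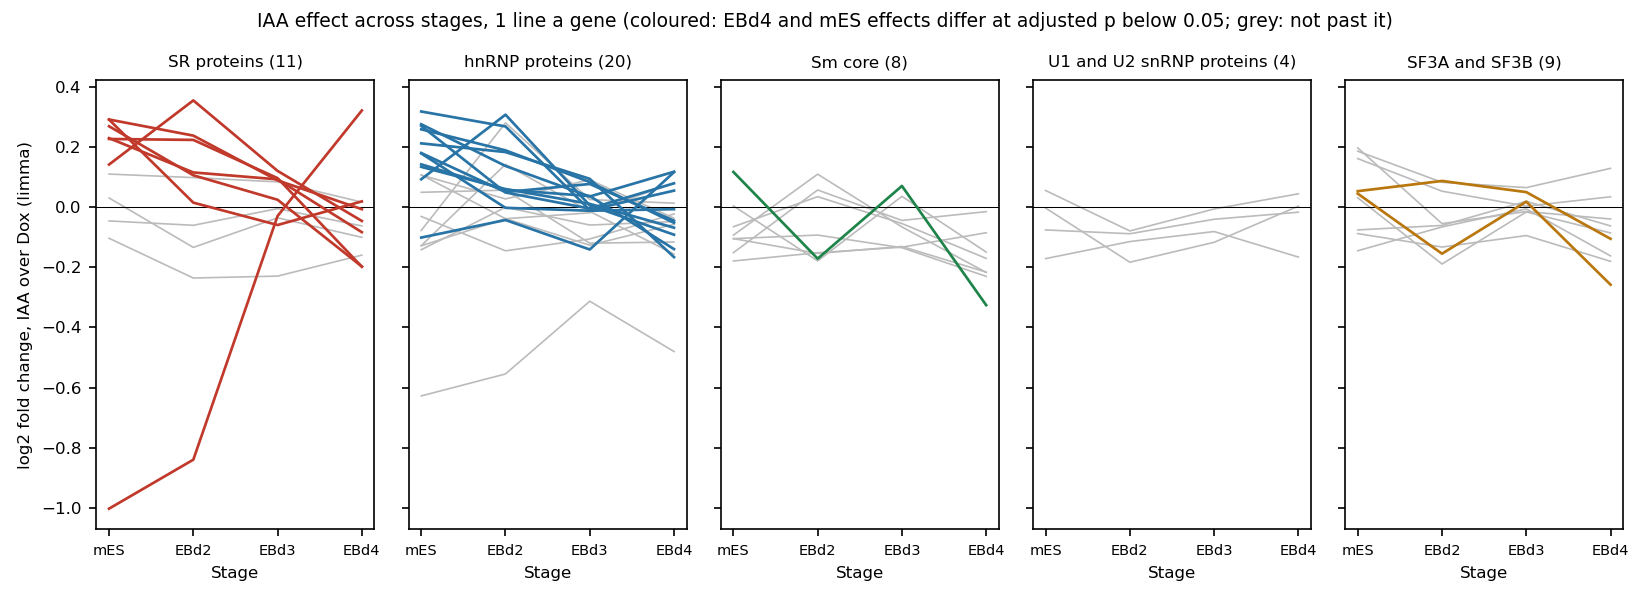
Log2 fold change of IAA over Dox (y axis) across the 4 stages (x axis), 1 line a gene, in a panel for each role; coloured lines have an EBd4 effect that differs from the mES effect at limma adjusted p below 0.05. Most coloured SR and hnRNP lines start between 0.1 and 0.3 in mES and end near or below 0, while Srsf12 climbs from -1.002 to 0.32 and the lowest grey hnRNP line is Hnrnpd.

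Other splicing genes were read from 12 lists with 134 genes, all of which were found. In mES, 62 of 132 tested rose and 25 fell, beside 17.3% and 20.1% of all tested genes and 37.9% and 24.2% of those with a mean of at least 400. In EBd2 21 of 134 rose and 40 fell, beside 13.4% and 16.7% of all genes. In EBd3 4 of 133 rose and 15 fell (4.22% and 6.32% of all), and in EBd4 7 of 133 rose and 19 fell (4.69% and 5.57%). Genes with a mean of at least 400 rose and fell at 27.5% and 18.7% in EBd2. The same shares were 10.6% and 8.51% in EBd3, and 11.1% and 9.05% in EBd4. All 8 SR-related genes rose in mES, with Tra2a, an SR-like splicing activator, at 0.54 ± 0.030 (limma adjusted p = 2.76e-17) and Son, a nuclear speckle scaffold, at 0.30 ± 0.023 (6.12e-14). Of 8 kinases that act on SR proteins, 6 rose and Srpk2 fell, with Clk1 at 0.52 ± 0.037 (1.49e-14) and Clk4 at 0.35 ± 0.047 (9.93e-08). Of 10 genes of nonsense-mediated decay, 8 rose and 2 fell, with Smg6, its endonuclease, at 0.43 ± 0.043 (1.37e-10). In EBd2 the SR-related genes had 1 rise and 2 falls, the kinases 2 and 1, and the decay genes 1 and 4. The same counts were 1 and 0, 0 and 0, and 0 and 1 in EBd3, and 1 and 1, 2 and 0, and 0 and 0 in EBd4. Coil, the scaffold of Cajal bodies where snRNPs mature, rose from 1361 ± 10.2 to 2523 ± 96.9 counts in mES (0.89 ± 0.032, 3.68e-23) and did not pass the test in the EB stages.

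The LSm proteins form related rings, a nuclear ring on U6 RNA and a cytoplasmic ring, with Lsm1, in mRNA decay. In mES 2 of 8 LSm genes fell, in EBd2 7, in EBd3 2 and in EBd4 2, beside 20.1%, 16.7%, 6.32% and 5.57% of all tested genes, and none rose by limma. Lsm1 passed the test in no stage. Lsm4 fell in all 4 stages, by -0.54 ± 0.033, -0.69 ± 0.056, -0.54 ± 0.055 and -0.33 ± 0.049 (limma adjusted p = 1.48e-16, 8.13e-09, 1.58e-07 and 0.000869). Its mean went from 2220 ± 56.0 to 1522 ± 57.3 counts in mES and from 2399 ± 184 to 1484 ± 68.7 in EBd2. Casc3, a part of the exon junction complex left on spliced mRNA, rose in mES (0.41), EBd2 (0.34) and EBd3 (0.24). Of the 5 genes of that complex, 1 rose and 2 fell in mES, 1 rose and 1 fell in each of EBd2 and EBd3, and 0 rose and 1 fell in EBd4. Magohb, another part of it, fell in mES (-0.95), EBd2 (-0.86) and EBd3 (-0.59).

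Levels can be compared between genes only roughly per exonic kb, since the length is that of all annotated transcripts, used or not. Some of the lowest ranks below depend on that length. Hnrnpr (22.2 exonic kb) had 1445 to 1477 counts in mES Dox, more than Hnrnph3 (676 to 694, 3.15 kb). Snrpc (6.52 kb) had 1108 to 1174, more than Snrpa1 (901 to 1018, 3.17 kb). In mES Dox, SR genes ran from 6.01 ± 0.777 (Srsf12) to 1475 ± 21.4 normalized counts per kb (Srsf2), with Srsf5 (1449 ± 29.9) not apart from Srsf2 beyond their spread. The hnRNP genes ran from 65.7 ± 0.719 (Hnrnpr) to 5082 ± 43.5 (Hnrnpa1), with Hnrnpab next at 3312 ± 43.3. Sm genes ran from 228 ± 13.6 (Snrpn) to 1175 ± 17.7 (Snrpb), U1 and U2 genes from 174 ± 5.37 (Snrpc) to 548 ± 9.86 (Snrpa), and SF3 genes from 294 ± 7.79 (Sf3b5) to 576 ± 6.74 (Sf3a3).

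The annotation (GENCODE M21) shows what the members share beyond their names. Transcripts marked for nonsense-mediated decay were listed for 24 of 52 members (46.2%) and for 29.0% of 12117 protein-coding genes with a mean of at least 20. The share was 9 of 11 for SR genes, 10 of 20 for hnRNP genes, 2 of 8 for Sm genes and 1 of 9 for SF3A and SF3B. A transcript with a retained intron was listed for 73.1% of members and 59.5% of the other set. The members' genes were short, with a median span of 10447 bases against 24731. The sets also differ in level, with 98.1% and 46.8% at a mean of at least 400, and were not matched for it.

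Promoters of 300 bases (250 before and 50 after the RefSeq start, GRCm38.p6) were found for 46 members, with the first listed start used, and for 9606 protein-coding genes with a mean of at least 20. Entries for Hnrnpll, Hnrnpul2, Sf3b4, Sf3b5, Snrpb and Snrpd1 were not matched. Motifs were sought in the 250 bases before the start. A GC box was found on either strand in 32 of 46 member promoters (69.6%) and in 62.1% of all, among them 10 of 11 for SR genes. A CCAAT box (CCAAT, either strand) was found in 45.7% and 37.4%, among them 12 of 18 for hnRNP genes. The other motifs searched on both strands were the E box (CACGTG, 6.52% of member promoters and 8.66% of all), the CRE (TGACGTCA, 4.35% and 2.88%), the TATA box (TATAAA, 10.9% and 5.89%), an ETS site (CCGGAAGT, 13% and 6.24%), the YY1 motif (0% and 0.448%), the NRF1 motif (0% and 1.73%) and the CGCG element bound by BANP (0% and 0.947%). The observed to expected CpG ratio of these 250 bases had a median of 0.872 in members and 0.742 in all. The Srsf12 promoter printed above holds 19 CpGs and that of Hnrnpd 39. These matches describe letters only.

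Near-identical copies can take reads from a member. With BLAST, 21 members had 96 annotated pseudogene copies of at least 90% identity over 300 bases. The copies' counts came to 7.12% of the member's for Hnrnpk, 2.08% for Snrpc and 1.28% for Hnrnpa3, which has 36 copies, and to less than these for the others. Changes of these 3 genes of a few percent are uncertain for that reason.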

How the data were processed

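RNA-seq of 24 mouse libraries in 8 groups of 3 was analysed, with groups taken from the labels. Per the submitters' processing notes, reads were processed with STAR 2.5.3a, featureCounts 1.5.2 and DESeq2 (version not given in the sources used here) on mm10. Strandedness and annotation version are not given either. The deposited signal values are gene counts divided by 1 size factor per library, as read from the values: all of them (100%, within 1e-06) gave whole reads when multiplied by a factor recovered from the low values (0.775 to 1.51). These reads give the depth per library. The deposited tables also hold the authors' log2 fold changes, test scores and p-values, used only where named. Of the genes, 14339 had no symbol.

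The members and the gene lists were chosen with earlier results of these data known. Values were tested with limma 3.58.1 in R 4.3.3 on log2(value + 1), over genes with a mean of at least 1 in the libraries of the fit, with Benjamini-Hochberg adjustment at 0.05. A fold change on this scale understates low genes. IAA was set against Dox within each stage (6 libraries), Dox stages against Dox mES (12 libraries), and the IAA effects of stages against each other (24 libraries). Named genes are the 6 largest called changes each way per stage, those called alike in all stages, 4 each way for the other comparisons, and genes that complete a role or pair. Other splicing lists give up to 3 genes each. SE is the standard error of a log2 change and SD the spread of 3 libraries. Alternatives were a pseudocount of 0.1, no filter, a mean of at least 20, TMM scaling, edgeR 4.0.16 and DESeq2 1.42.0 on recovered reads, a joint fit, a replicate block, and leaving out each library. The edgeR test on recovered reads called 7932 genes in mES, 6680 in EBd2, 2301 in EBd3 and 2192 in EBd4. The scripts were tested on simulated data. Same-numbered libraries deviated with correlations from -0.242 to 0.118, with 1 of 12 above 0.1, so the numbers do not pair them. Promoters are from RefSeq (GRCm38.p6). Copies were sought with BLAST 2.17.0.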

Additional observations from a re-analysis of the deposited data

Results flagged for a closer look

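The IAA effect of an EB stage differed from the effect in mES for these members, by the limma test of the difference in 24 libraries. All of these share the mES libraries, so they are not separate evidence.

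For EBd2 minus mES, the log2 difference was -0.29 for Snrpn, -0.28 for Srsf5, -0.25 for Sf3a2 (an SF3A subunit) and -0.22 for Hnrnpl. It was 0.36 for Hnrnpll, 0.27 for Hnrnph2, 0.21 for Hnrnpa2b1 and 0.21 for Srsf7. For EBd3 minus mES, it was -0.35 for Srsf5, -0.33 for Hnrnpdl, -0.27 for Hnrnpl and -0.24 for Srsf2, and 0.97 for Srsf12. For EBd4 minus mES, it was -0.47 for Srsf2, -0.44 for Snrpn, -0.42 for Srsf3 and -0.38 for Hnrnph1. It was 1.32 for Srsf12 and 0.22 for Hnrnph3. The limma adjusted p ran from 6.32e-07 for Srsf2 in EBd4 to 0.0362 for Sf3a2 in EBd2. Leaving out single libraries ended the call for Snrpn and Sf3a2 in EBd2, Srsf12 in EBd3 and Hnrnph3 in EBd4, each for several libraries. Without EBd2 Dox 3 the difference for Sf3a2 was -0.21 (limma adjusted p = 0.0943), and without EBd4 IAA 1 that for Hnrnph3 was 0.20 (0.0684).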

How the results depend on the processing

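Of 3196 values of named genes under the alternatives, 2970 kept direction and side of the threshold, 189 lost the call, 37 gained it and 0 reversed. Counts of members moved by more than 1.5 times as follows, and the cause was not tested. In mES, 14 falls became 8 with DESeq2 and 9 in the joint fit. In EBd2, 9 rises became 15 with TMM and 16 with edgeR, and 11 falls became 6 with each of TMM, edgeR and DESeq2. In EBd3, 4 falls became 2 with DESeq2, and 1 rise became 0 in the joint fit. In EBd4, 9 falls became 5 with a pseudocount of 0.1, 3 with DESeq2 and 17 in the joint fit, which had 2 rises. For the EBd2 difference, 8 lower members became 5 with no filter, 4 with TMM and 5 with edgeR. For the EBd3 difference, 1 higher member became 2 with TMM or edgeR and 0 with DESeq2. The joint fit was not run for the differences, which already use all 24 libraries. TMM moved the median of all genes by at most 0.034 (log2).

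With the replicate number as a block, EBd3 had 2 rises, EBd4 had 3 falls and the EBd4 difference had 1 higher member; the mES counts were 22 and 14. Same-numbered libraries share only a number.

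Leaving out 1 library gave rises and falls of 21 to 24 and 11 to 15 in mES, 8 to 10 and 5 to 14 in EBd2, 0 to 2 and 2 to 5 in EBd3, and 0 and 0 to 12 in EBd4. For Dox stages it gave 21 to 26 and 10 to 13 in EBd2, 20 to 24 and 12 to 14 in EBd3, and 18 to 22 and 16 to 18 in EBd4. For the differences it gave 4 to 6 and 3 to 10 in EBd2, 0 to 2 and 8 to 11 in EBd3, and 1 to 3 and 15 to 22 in EBd4. Depth limits Srsf12, at 6.77 to 69.9 normalized counts.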

Other observations

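Splicing factors with tissue-restricted roles were listed apart from the members, and 27 were found. With IAA, 9 of 25 tested rose and 9 fell in mES, beside 17.3% and 20.1% of all tested genes. In EBd2 4 of 27 rose and 7 fell (13.4% and 16.7% of all), in EBd3 1 rose and 7 fell (4.22% and 6.32%), and in EBd4 2 rose and 7 fell (4.69% and 5.57%). Ptbp2, the neuronal paralog of the polypyrimidine tract binding protein, fell in all 4 stages, by log2 changes of -0.54 ± 0.063, -0.73 ± 0.060, -0.56 ± 0.052 and -0.67 ± 0.053 (limma adjusted p = 4.99e-09, 1.15e-08, 3.5e-08 and 1.73e-05). Its mean went from 1421 ± 52.4 to 893 ± 14.3 normalized counts in EBd4. Ptbp1, the widely expressed paralog, rose in mES (0.23), EBd2 (0.18) and EBd3 (0.13), and had a value of -0.04 in EBd4.

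Esrp1, an epithelial splicing regulator, fell from 234 ± 6.62 to 88.9 ± 11.3 counts in mES (-1.39 ± 0.094, limma adjusted p = 3.38e-15), and Celf4, a neuronal RNA-binding protein, from 78.5 ± 7.14 to 20.1 ± 6.81 (-1.95 ± 0.19, 5.91e-11). Neither passed the test in EBd2. Nova1, a neuronal splicing regulator, fell in EBd3 (-0.79) and EBd4 (-0.73). Mbnl2, a relative of muscleblind, fell in EBd2 (-0.28) and EBd3 (-0.26) and rose in EBd4 (0.66 ± 0.085, limma adjusted p = 0.000335). Whether these effects differ between stages is not given here.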
